A study of Homo sapiens with 2 samples.

Results

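The genes described here are 50 human factors that make ribosomes in the nucleolus, picked by name: proteins of the small nucleolar ribonucleoprotein particles (snoRNPs), subunits of the small subunit processome, and assembly factors of the small and large ribosomal subunits. Of these, 49 were matched by symbol to a gene identifier among the 57736 genes listed. The identifier of DDX52 was not among them, and this gene was not analysed here. The RNA came from HEK293T cells, a line derived from human embryonic kidney and made to express SV40 large T antigen, with the genotype given as wild type. Both libraries belong to 1 group, replicates 1 and 2, heated at 43 °C for 20 min and then kept at 37 °C for 6 h, and each replicate was lysed on its own. The heating time is that of the labels, whereas the paper describes a longer time at this temperature. Poly(A)+ RNA was read in 50 bp reads, and unheated cells were not analysed here, so that levels are given after heat shock with recovery and no change caused by heating can be read from them. The molecule is entered as genomic DNA in the labels, against the protocol, which describes poly(A)+ RNA.

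Ribosome biogenesis starts in the nucleolus, where RNA polymerase I transcribes rDNA into a long precursor that holds the 18S, 5.8S and 28S rRNAs. Box C/D snoRNPs guide 2′-O-methylation and box H/ACA snoRNPs guide pseudouridylation of this precursor, while the processome, built around the U3 snoRNP, folds and cuts the part that becomes the small subunit. Helicases, GTPases and scaffold proteins then act on the pre-40S and pre-60S particles until these are exported.

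The libraries held 22529828 and 26890199 expected counts (reads assigned to genes, with multi-mapped reads shared), and 15188 genes were detected, that is, had 1 TPM or more in each library (TPM is an amount of transcript scaled to length and to a fixed sum per library). The lowest count of a member in a library was 428.34 and the highest was 44929, for which the counting error alone is 4.83% and 0.472%. The posterior SD of the quantifier was at most 1.38% of a member's count. It gives the spread of the assigned count and not how many reads could also come from other genes. Of the markers tried for the labelled tissue, KRT18 (58.13 and 47.13 TPM), KRT8 and PAX2 were detected, 3 of 9 kidney epithelial genes in the tables, whereas UMOD and CDH16 were at 0. Of 7 neuronal markers, 5 were detected, while MAP2 and STMN2 were under 1 TPM in both libraries. The neuronal list had the larger summed TPM (484.56 and 470.86, against 80.94 and 65.25 for the kidney list). Most of that sum was UCHL1 alone, at 397.06 and 367.37 TPM. The next neuronal marker, NEFM (45.14 and 56.5 TPM), was below KRT18 in replicate 1 and above it in replicate 2. The blood markers PTPRC and CD3E were at 0, and of 5 fibroblast markers COL1A1 and COL3A1 were detected.

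All 49 members in the tables were detected. Their TPM summed to 0.916% of replicate 1 and 1.02% of replicate 2, or 0.967% ± 0.0714 (SD, n = 2). The sum rested on a few genes, and without NPM1 the mean share was 0.642%. NPM1 alone held 33.5% ± 1.25 of the summed TPM, NPM1 and NCL together 47.2% ± 1.85, and the 4 highest members (NPM1, NCL, FBL and NOLC1) 58.4% ± 0.661. The median member had 65.5 TPM, with 60.6 in replicate 1 and 68.1 in replicate 2, against 14.3 over all detected genes and 18.6 over the 12367 detected protein-coding genes. There were 46 members above that protein-coding median, and the lowest member stood at percentile 33.6 of detected protein-coding genes. Thus the members were abundant mRNAs as a rule, but they spanned a 316-fold range of mean TPM: 2 lay at or above 1000 TPM, 15 between 100 and 1000, 28 between 20 and 100, and 4 under 20.

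**Figure D1:**
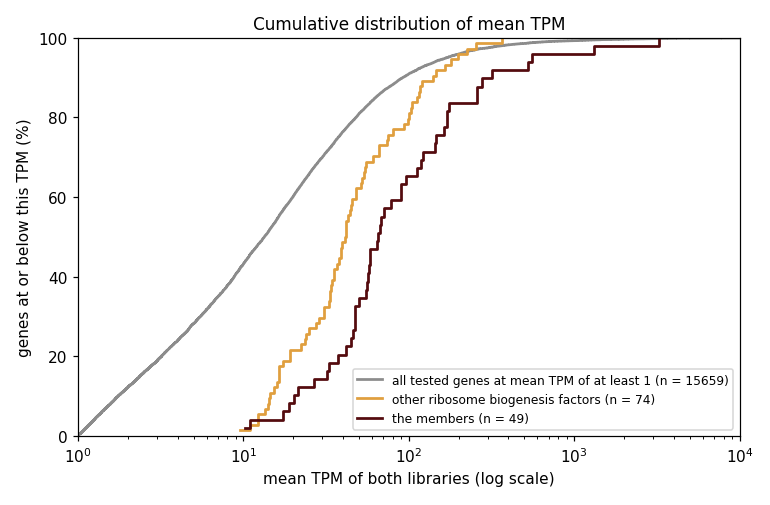
Cumulative distribution of mean TPM (x axis, log scale) for the 49 members, 74 other ribosome biogenesis factors, and 15659 tested genes with mean TPM of at least 1. The y axis gives the percent of genes at or below that TPM. The curve of the members lies to the right of both others over most of its range, with medians of 65.5 TPM for the members and 41.4 TPM for the other factors.

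The order of the members was much alike in both libraries (across the 49 genes, Pearson's r = 0.98 on log2(TPM + 1) and Spearman's rho = 0.97, with genes not being independent replicates). Neighbours in that order often overlapped. Of 48 neighbouring pairs, 35 had overlapping TPM ranges over the libraries and 13 did not. An overlapping pair can still keep its order within each library, as BOP1 and PES1 did. The steps without overlap included NPM1 over NCL, NCL over FBL, NOLC1 over DKC1, DKC1 over NHP2 and UTP15 over NOL6.

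The members were divided into 9 functional groups by known role, and the TPM values of each group are shown in the plot of levels by group. The level of a group is given below as the log2 of its median TPM over the median of all 49 members. Nucleolar chaperones were the highest group (3.83 in replicate 1 and 3.86 in replicate 2, or 3.03 on the mean without NPM1), followed by the box H/ACA (1.97 and 1.61) and box C/D (1.62 and 1.87) snoRNP proteins, which changed places between the libraries, and by the PeBoW complex (0.63 and 0.33). The other 5 groups lay below the median of all members in both libraries, between -0.11 and -0.39. Among these 5, the other pre-60S factors were the highest and the UTP-A subcomplex the lowest in both libraries. Between them the order is not fixed, since the other processome factors and the helicases changed places around the pre-40S factors. The processome, pre-40S and helicase medians also overlapped their neighbours over the libraries. The steps from chaperones to snoRNP proteins, from those to PeBoW, and from PeBoW to the rest held in both libraries on TPM. They did not all hold on CPM, which is not scaled to length, where the UTP-A subcomplex (0.36) lay above box H/ACA (0.28) and PeBoW (0.14).

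**Figure D2:**
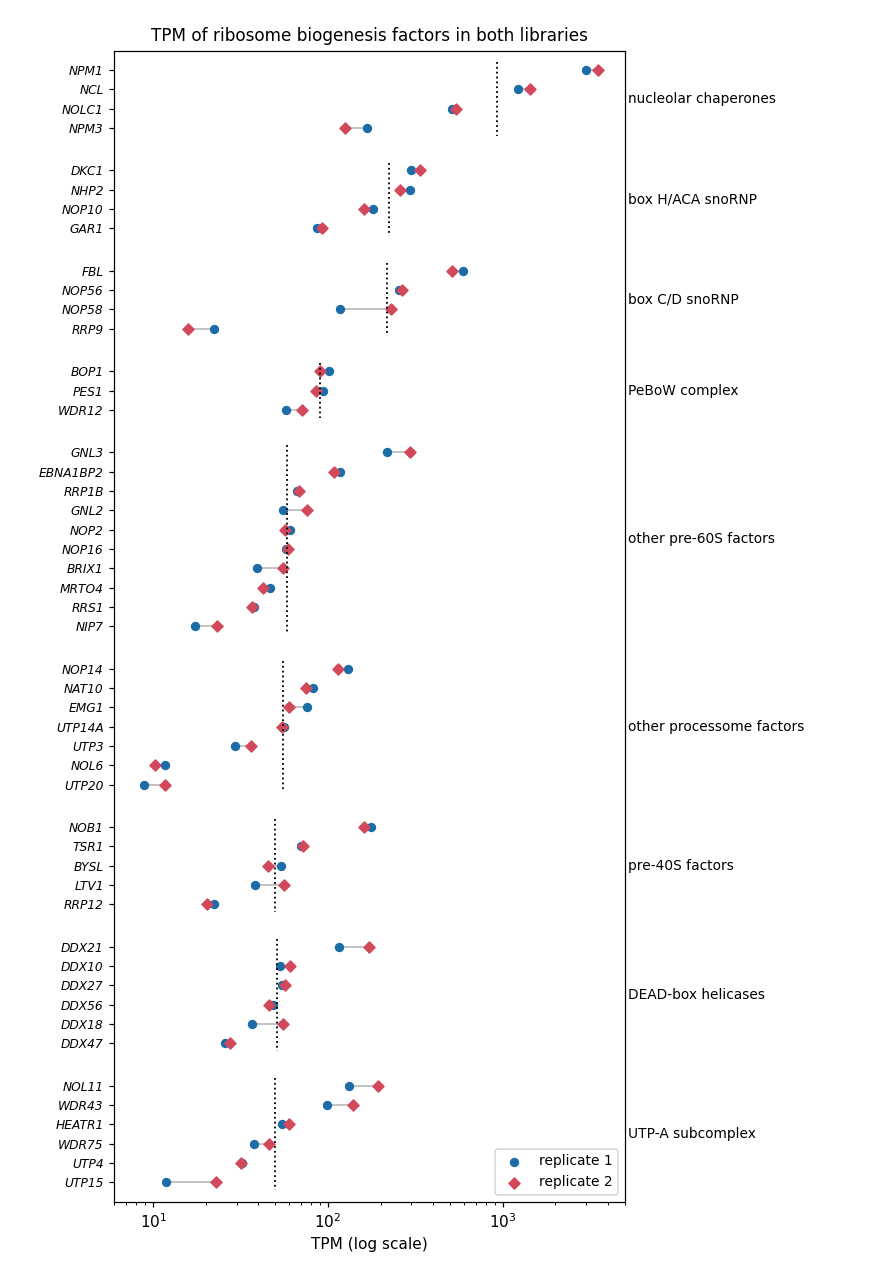
TPM (x axis, log scale) of each of the 49 members in replicate 1 (blue circles) and replicate 2 (red diamonds), joined by a grey line and arranged by functional group, with the dotted line at the median of the group's mean TPM. NPM1 and NCL stand above 1000 TPM in both libraries, and NOP58 and UTP15 show wide gaps between the libraries.

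Nucleolar chaperones bind histones, rRNA and assembling particles, and these 4 genes held 54.2% ± 1.23 of the TPM of all members. NPM1 encodes nucleophosmin, the major protein of the granular component of the nucleolus, and had 2989.76 TPM in replicate 1 and 3499.25 in replicate 2. NCL encodes nucleolin, an RNA-binding protein of pre-rRNA, and had 1216.30 and 1436.22 TPM. NOLC1 encodes Nopp140, which accompanies snoRNPs, and had 512.06 and 538.89 TPM. NPM3, a relative of NPM1, was the lowest of the group with 167.23 and 125.98 TPM. The gap between NPM1 and NPM3 was 17.9-fold in replicate 1 and 27.8-fold in replicate 2. NPM1 lies at chr5:170814120-170838814 on the plus strand and NCL at chr2:232318242-232348352 on the minus strand (GRCh37).

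In the box C/D snoRNP group, FBL encodes fibrillarin, the methyltransferase of the particle, and had 592.00 and 516.14 TPM. NOP56 and NOP58 encode the paired scaffold proteins that hold fibrillarin on the guide RNA. NOP56 had 254.16 and 266.06 TPM, whereas NOP58 had 118.04 and 230.59 TPM. So NOP58 was below NOP56 in both libraries, but close to it only in replicate 2. RRP9 encodes a protein particular to the U3 snoRNP, and was the lowest with 22.15 and 15.74 TPM, which is 26.7-fold and 32.8-fold under FBL. FBL, NOP56 and NOP58 therefore were not at equal mRNA levels.

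In the box H/ACA snoRNP group, DKC1 encodes dyskerin, the pseudouridine synthase, and had 298.52 and 335.17 TPM. Its partner NHP2 had 295.66 and 257.15 TPM, and NOP10 had 180.11 and 159.94 TPM. GAR1, which completes the particle, was the lowest with 86.89 and 92.48 TPM. The order DKC1, NHP2, NOP10, GAR1 was the same in both libraries. The span of the group, 3.44-fold and 3.62-fold, was far narrower than that of the box C/D group with RRP9. That contrast rests on RRP9, which is particular to the U3 snoRNP. Without RRP9, the box C/D group ran from NOP58 (118.04 and 230.59 TPM) to FBL (592.00 and 516.14). This was a wider span than that of box H/ACA in replicate 1 and a narrower one in replicate 2.

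The UTP-A subcomplex is the first part of the processome to bind the precursor and is also known to act in rDNA transcription. NOL11 was its highest member with 132.70 and 192.69 TPM, followed by WDR43 with 98.52 and 139.56 and HEATR1 with 54.68 and 60.18. The lowest was UTP15 with 11.89 and 22.99 TPM. WDR75 and UTP4 lay between HEATR1 and UTP15. All members of this subcomplex but UTP4 had more TPM in replicate 2, although the count ratios of NOL11, HEATR1 and WDR75 turned to -0.18, -0.24 and -0.38 (log2) once the GC trend between the libraries, described further on, was removed.

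Of the other processome factors, NOP14 was the highest with 129.63 and 113.75 TPM. NAT10, the acetyltransferase of 18S rRNA, had 82.45 and 74.44 TPM, and EMG1, a methyltransferase of 18S rRNA, had 75.65 and 59.69. UTP14A and UTP3 stood in the middle. UTP20, a very large scaffold protein, was the lowest of all members with 8.90 and 11.66 TPM, and NOL6 was beside it at 11.67 and 10.18. The ranges of UTP20 and NOL6 overlapped, and each was the lower one in 1 library.

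Among pre-40S factors, NOB1 encodes the endonuclease that makes the mature end of 18S rRNA, and it was the highest with 176.60 and 161.66 TPM. TSR1, a GTPase-like factor, had 70.53 and 71.95 TPM, and BYSL, the human bystin, had 54.21 and 45.29. RRP12, a factor of pre-40S export, was the lowest with 22.33 and 20.37 TPM. LTV1 lay near BYSL, above it in replicate 2 and below it in replicate 1.

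DEAD-box helicases unwind pre-rRNA and release snoRNAs. DDX21 was the highest of the 6 measured with 115.74 and 171.78 TPM, DDX10 had 53.05 and 60.73, and DDX27 had 54.61 and 56.81. DDX47 was the lowest with 25.68 and 27.64 TPM. DDX56 and DDX18 stood between. DDX21 at the top and DDX47 at the bottom did not overlap the rest of this group.

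The PeBoW complex, which acts in the processing that yields 28S and 5.8S rRNA, has 3 subunits. BOP1 had 101.67 and 90.56 TPM, PES1 had 94.12 and 85.69, and WDR12 had 57.80 and 71.39. BOP1 was above PES1 in both libraries, although their ranges overlapped, and WDR12 was the lowest in both. The highest and lowest subunit were 1.76-fold apart in replicate 1 and 1.27-fold in replicate 2, the narrowest span of the 9 groups.

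Among the other pre-60S factors, GNL3 encodes nucleostemin, a nucleolar GTPase, and was the highest with 218.44 and 296.55 TPM. EBNA1BP2 had 116.68 and 108.57 TPM, and RRP1B had 66.44 and 68.12. The lowest was NIP7 with 17.34 and 23.17 TPM. The remaining 6 (GNL2, NOP2, NOP16, BRIX1, MRTO4 and RRS1), among them the 28S rRNA methyltransferase NOP2 and the GTPase GNL2, lay from 36.80 to 75.88 TPM over both libraries.

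Shorter transcripts had higher TPM among the members (across 49 genes, Spearman's rho = -0.55 between TPM and transcript length weighted by the quantifier), as in the other factors (-0.52, n = 74) and, to a smaller degree, over detected protein-coding genes (-0.29). The 11 members under 1000 bases had a median of 170 TPM, the 20 members of 1000 to 2000 bases 65.0 TPM, and the 18 longer members 56.3 TPM. TPM is a level per length, and genes are not independent replicates.

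A feature of the members that their choice did not use is the sequence at their starts. RefSeq promoters of GRCh38.p14, 250 bases before to 50 after each start, were at hand for 42 of the 50 members. The E-box CACGTG, the same on both strands and known as the site of MYC and other basic helix-loop-helix factors, was found in windows of 20 of these 42 (47.6%). It was in 32.3% of 65 other ribosome biogenesis factors, 12.9% of 10025 detected protein-coding genes and 8.77% of all 27305 genes with a window. CGGAAG on either strand, a core of ETS factor sites, was in 25 members (59.5%), against 64.6% of the other factors, 38.7% of detected protein-coding genes and 22.6% of all genes. CCAAT on either strand was in 19 members (45.2%), against 36.9%, 43.7% and 39.7% of the same lists. A gene with several windows counted when any of them held the letters, and no share was tested. A match is only a run of letters, and binding was not measured here.

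The 20 members held 22 E-boxes, 9 of them beginning before the start, and the median E-box began 4.5 bases after it. They were found in 5 of 7 other processome factors and 5 of 8 other pre-60S factors with a window, but in none of the 3 chaperones with one. Members with an E-box had a median of 72.0 TPM (range 10.3 to 554) and the 22 without one 61.4 TPM (17.4 to 3245), so that the ranges overlapped widely. The 250 bases before the start are shown for 4 members that hold an E-box there: DDX21 as the highest helicase, NOP10 as the member with 2 E-boxes in 1 window, UTP20 as the lowest member of all, and NAT10 as a processome enzyme. The capitals mark CACGTG, and each sequence is written 5′ to 3′ on the strand of its gene.
DDX21, chr10:68956397-68956646, plus strand: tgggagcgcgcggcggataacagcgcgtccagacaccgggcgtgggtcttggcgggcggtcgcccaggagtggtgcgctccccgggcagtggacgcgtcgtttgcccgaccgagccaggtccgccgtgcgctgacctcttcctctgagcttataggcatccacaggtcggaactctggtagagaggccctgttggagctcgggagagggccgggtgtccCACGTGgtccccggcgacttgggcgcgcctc
NOP10, chr15:34343137-34343386, minus strand: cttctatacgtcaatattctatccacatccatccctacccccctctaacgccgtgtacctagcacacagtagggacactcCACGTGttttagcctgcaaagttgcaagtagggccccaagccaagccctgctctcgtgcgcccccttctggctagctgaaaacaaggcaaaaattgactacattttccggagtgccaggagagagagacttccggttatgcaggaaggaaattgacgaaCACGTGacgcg
UTP20, chr12:101279855-101280104, plus strand: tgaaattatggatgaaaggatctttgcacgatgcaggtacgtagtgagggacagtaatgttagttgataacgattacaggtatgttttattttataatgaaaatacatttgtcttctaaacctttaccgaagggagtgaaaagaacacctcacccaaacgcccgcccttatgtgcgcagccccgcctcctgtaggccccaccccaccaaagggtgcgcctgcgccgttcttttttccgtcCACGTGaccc
NAT10, chr11:34105379-34105628, plus strand: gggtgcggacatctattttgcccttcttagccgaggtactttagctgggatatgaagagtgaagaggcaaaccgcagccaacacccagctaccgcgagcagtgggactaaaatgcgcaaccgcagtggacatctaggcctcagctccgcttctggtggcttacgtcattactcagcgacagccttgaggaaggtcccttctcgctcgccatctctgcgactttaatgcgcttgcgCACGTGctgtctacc
In DDX21, UTP20 and NAT10 the E-box began 31, 10 and 15 bases before the start. The ones in NOP10 began 170 and 11 bases before it.

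Introns of ribosome biogenesis genes are known to carry snoRNAs, and 23 annotated snoRNA genes lay in introns of 8 members (NCL, NOP56, NOP58, DKC1, WDR43, NOL11, TSR1 and GNL3). By name, 18 belong to the C/D class and 5 to the H/ACA class, so that several of the hosts encode proteins of the same particles. Of the 22 listed in the tables, 21 had a summed count under 20 and 4 had no count in either library. The exception was SNORD86 in intron 8 of NOP56, with 117.93 TPM in replicate 1 and 93.64 in replicate 2, from only 81.52 and 73.57 counts. SNORD69 in intron 9 of GNL3 was next with 15.18 and 11.69 TPM from 8 and 7 counts. A copy of SNORD70 in intron 3 of NOP58 had 2.49 and 16.54 TPM from 1.67 and 12.65 counts. The gene annotated as both SNORD53 and SNORD92, in intron 10 of WDR43, had 5.50 and 1.61 TPM, and SNORD53 in intron 9 had 3.67 and 3.23 TPM, each from 3 counts or fewer in a library. The libraries hold poly(A)+ RNA, whereas mature snoRNAs carry no poly(A) tail, and whether these reads came from snoRNAs or from host introns was not tested.

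SNORD86 and SNORD69 are shown as the highest in TPM, and SNORD53 as a gene with reads in both libraries from another host, all from the GRCh37 genome on the strand of the gene. The capitals mark exact box C (TGATGA) and box D (CTGA) letters within 20 bases of the ends.
SNORD86, chr20:2636743-2636828, plus strand: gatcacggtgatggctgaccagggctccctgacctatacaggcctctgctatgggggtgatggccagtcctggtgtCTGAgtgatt
SNORD69, chr3:52726752-52726828, plus strand: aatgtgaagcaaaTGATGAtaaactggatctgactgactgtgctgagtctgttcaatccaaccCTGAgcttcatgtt
SNORD53, chr2:29149933-29150010, plus strand: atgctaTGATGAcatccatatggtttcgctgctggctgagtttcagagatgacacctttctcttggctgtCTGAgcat
SNORD69 and SNORD53 hold both boxes in these exact letters, as do 11 of the 18 C/D genes in members (61.1%) and 51.9% of all 389 annotated SNORD genes. SNORD86 holds the exact box D letters only.

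To see how far the libraries differ from each other, counts of each gene were compared by a two-sided, exact binomial test, and the p-values of 19714 genes were adjusted after Benjamini and Hochberg. The log2 ratios are replicate 2 over replicate 1 on counts scaled by edgeR TMM factors, a difference and not a level. The test compares 2 libraries of 1 group, not conditions, and with deep counts it calls small differences. At an adjusted p under 0.05, 39 of 49 members differed, 17 of them higher in replicate 2 and 22 higher in replicate 1. Over all genes tested 42.2% did (22.1% higher in replicate 2 and 20.1% in replicate 1), as did 71.5% of the 7568 genes whose summed count was at least that of the lowest member (1118). The median ratio of the members was -0.04, beside 0.02 over all genes and -0.06 over those 7568 genes. Those 7568 genes are called the genes of like depth below, although they share only the lower limit of count with the members. The median ratio of the members thus was near theirs, while 79.6% of the members differed against 71.5% of them.

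A log2 ratio of at least 0.5 in either direction (1.41-fold) together with that adjusted p was found for 3 members, 2 higher in replicate 2 and 1 in replicate 1. This was so for 14.1% of all genes (12.3% and 1.82% in the same order) and 13.1% of the genes of like depth (12.6% higher in replicate 2). NOP58 (chr2:203130459-203168384, plus strand) had 2292 counts in replicate 1 and 5440 in replicate 2, and its ratio was 0.96 ± 0.04 (counting SE), or 1.95-fold (adjusted p = 5.5e-169, exact binomial test). UTP15 (chr5:72861268-72879205, plus strand) had 428.34 and 763.47 counts, a ratio of 0.55 ± 0.09 (adjusted p = 9.7e-10, exact binomial test). RRP9 (chr3:51967445-51975920, minus strand) had 618 and 500 counts and was higher in replicate 1, with a ratio of -0.59 ± 0.09 (adjusted p = 9.2e-11, exact binomial test). NOP58 and RRP9 are both proteins of box C/D particles, and they differed in opposite directions.

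The TPM of UTP15 differed more than its counts, with a log2 ratio of 0.95 on TPM. Its weighted transcript length was 2022.97 bases in replicate 1 and 1647.71 in replicate 2, which is 18.6% shorter. NIP7 likewise went from 2013.50 to 1654.07 bases, and its log2 ratio was 0.42 on TPM but 0.03 ± 0.08 on counts (adjusted p = 0.79, exact binomial test). No other member had a length that differed by more than 10%. In 7 members (DDX27, DDX47, NOLC1, NOP16, NOP56, RRP1B and TSR1) the TPM was higher in replicate 2 but the scaled count was not, with ratios of at most 0.13 in size. Over the genes of like depth, the median log2 ratio of TPM + 1 was 0.04, so that TPM as a whole stood 0.10 above the scaled counts.

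**Figure D3:**
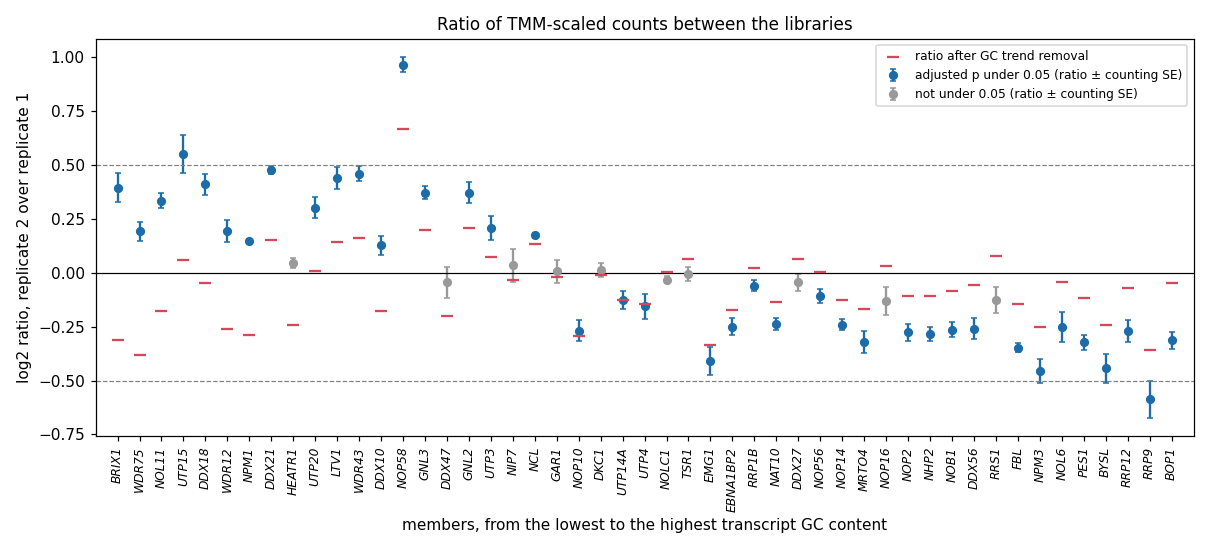
Log2 ratio of TMM-scaled counts, replicate 2 over replicate 1 (y axis), for each of the 49 members ordered by transcript GC content (x axis). Points are ratios with their counting SE, blue where the adjusted p was under 0.05 and grey where it was not, red dashes are ratios after removal of the GC trend, and dashed lines mark a ratio of 0.5 in each direction. Members at the left are mostly above 0, those at the right are below it, and NOP58 stands highest in both forms.

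The ratio moved with the base composition of the transcript. Of the 18 members under 45% GC, 17 had a higher scaled count in replicate 2 (median ratio 0.35), of the 16 from 45% to 52% GC 4 had (median -0.08), and of the 15 with more GC none had (median -0.29). The same held over all genes whose counts summed to 100 or more, where the medians of these classes were 0.36, -0.03 and -0.20. Across the 49 members, Pearson's r between ratio and GC content was -0.82 and Spearman's rho was -0.88, beside r = -0.64 across 13544 genes. These points share both libraries, and the correlations are given as a description.

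When the GC trend of all genes was removed, r came to -0.14 across the members, and 30 of 49 differed at an adjusted p under 0.05 (7 higher in replicate 2, 23 in replicate 1). This was so for 26.8% of all genes (13.5% higher in replicate 2 and 13.3% in replicate 1) and 47.7% of the genes of like depth. Of these 30, 28 had also differed before. The only member still past 0.5 was NOP58, at 0.66 (adjusted p = 2.3e-78, exact binomial test with the trend removed), where 6.97% of all genes (5.20% higher in replicate 2 and 1.77% in replicate 1) and 4.64% of the genes of like depth (3.54% higher in replicate 2) were. UTP15 came to 0.06 (adjusted p = 0.72, same test) and RRP9 to -0.36 (adjusted p = 2.7e-04, same test). Of the 28 members that differed under both, 22 kept their direction and 6 (NPM1, WDR75, NOL11, WDR12, DDX10 and BRIX1) turned from higher to lower in replicate 2, NPM1 from 0.15 to -0.29 and WDR75 from 0.19 to -0.38. No direction between the libraries is given for these 6. The cause of the GC trend was not tested.

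**Figure D4:**
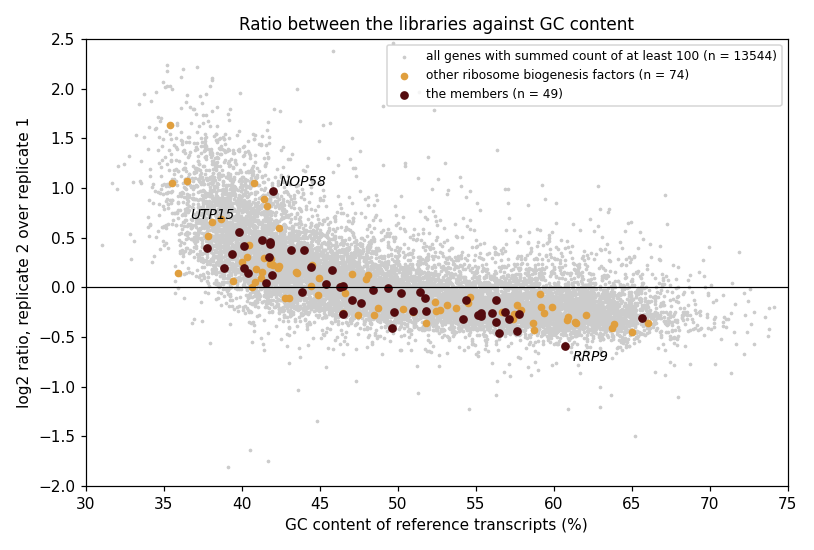
Log2 ratio, replicate 2 over replicate 1 (y axis), against GC content of reference transcripts in percent (x axis) for the 49 members (dark), 74 other ribosome biogenesis factors (orange) and 13544 genes whose counts summed to 100 or more (grey), 8 of which lie outside the axes. All sets fall with GC content, and NOP58 lies near the upper edge of the genes of its GC content.

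Another 75 ribosome biogenesis factors were listed beside the members, and 74 of them were in the tables. All 74 were detected, with a median of 41.4 TPM. The 5 highest were RSL1D1, a regulator of nucleolar proteins (334.88 and 393.98 TPM), NOP53, a pre-60S factor (278.77 and 233.19), TCOF1, the treacle protein of rDNA transcription (236.56 and 210.63), and the helicases DDX54 (200.92 and 193.76) and DDX24 (192.89 and 167.56). Between the libraries 58 of 74 (78.4%) differed, 27 higher in replicate 2 and 31 higher in replicate 1. This was so for 42.2% of all genes and 71.5% of the genes of like depth. Past 0.5 were 10, all of them higher in replicate 2. The shares past 0.5 and higher in replicate 2 were 12.3% of all genes and 12.6% of the genes of like depth. Those genes were set by the lowest member, and some of these factors had lower counts. The largest ratios were those of ESF1 (1.64), KRR1 (1.06) and MPHOSPH10 (1.05), which are processome factors of low GC content, and in the other direction of WDR18 (-0.45), EIF6 (-0.43) and TBL3 (-0.41). After removal of the GC trend 33 of 74 differed, 8 and 25 in the same order, beside 26.8% of all genes and 47.7% of the genes of like depth. Past 0.5 were 6.97% of all genes, 4.64% of the genes of like depth, and 5 of these factors. Of the 5, 4 were higher in replicate 2. The one in the other direction, named after its value was seen, was RSL24D1, which went from 0.14 to -0.80 and so turned from higher to lower in replicate 2. The other factors thus showed the same pattern with GC content as the members.

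Reads of 50 bp can be shared with near-identical genes. NPM1 had 49 of the 72 pseudogenes of members in the annotation, and together these held 94.26 and 172.23 counts, or 0.282% and 0.383% of the counts of NPM1. Only NPM1P27 reached a mean of 1 TPM (2.88 and 4.80). BOP1 shared 50.5% of its 50-base transcript sequences with KM-PA-2, which was at 0 in both libraries, and DDX47 shared 33.8% with APOLD1 (1.49 and 2.00 TPM). UTP14A shared 7.13% with its retrocopy UTP14C (3.97 and 5.64 TPM). Other paralogs with at least 1 TPM were RRP1 (58.31 and 51.57), GNL3L (36.22 and 36.65), DDX50 (28.67 and 35.11), FBLL1 (2.35 and 2.23) and NPM2 (1.73 and 1.29). Each was below the member it is related to.

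In 14 members an exon overlapped a gene on the opposite strand, among them GNL3 with GLT8D1, EMG1 with LPCAT3 and TSR1 with SRR. On the same strand, exons of 4 members (HEATR1, LTV1, DDX47 and NOP56) overlapped another gene, and strand could not separate such reads. Both kinds of overlap were taken with the whole span of the other gene, introns included. Whether counting used strand is not given in these sources. Without it, reads that lie where exons of both genes overlap cannot be told apart, while reads outside such stretches are not affected. For EMG1 the partner LPCAT3 had 49.48 and 47.38 TPM, near the level of EMG1 itself, and for TSR1 the partner SRR had 51.25 and 47.48 TPM. For NIP7, an unnamed protein-coding gene on the opposite strand had 1.4 TPM in replicate 1 and 6.08 in replicate 2. Whether this bears on the TPM or length of NIP7 was not tested.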

How the data were processed

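Poly(A)+ RNA of 2 replicates of heat-shocked HEK293T cells was sequenced, and both form 1 group per the labels. The submitters' processing notes name Trimmomatic 0.36, STAR 2.6.1c and RSEM 1.3.1 with GRCh37/hg19, while the methods name featureCounts with an Ensembl gene list. The deposited tables have the columns that RSEM writes: expected counts, in which the authors shared multi-mapped reads among genes, with posterior SDs, and TPM and FPKM values, which the authors scaled to effective length and to the library. A pooled table of the authors was used only as an alternative.

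The members, functional groups, other lists and tests were chosen with earlier results of these data known. Members were matched by symbol through GENCODE release 44 on GRCh37. Named with full values were the 3 highest and the lowest member of each group and those past the fold limit. A gene with a TPM of 1 or more in each library was taken as detected. Expected counts were rounded for the exact binomial test (two-sided), with the share of each library from edgeR 4.0.16 TMM factors and Benjamini-Hochberg adjustment over genes whose counts summed to 10 or more. A pseudocount of 0.5 was used in log2 ratios. Trends with GC content or length were taken as medians over 50 classes of genes whose counts summed to 100 or more. Alternatives used DESeq2 1.42.0 size factors, library totals, FPKM and an edgeR exact test. The binomial test and the trend step were tried on simulated data. The simulated counts held counting error and no GC trend, unlike these libraries, so they do not show how the test behaves here. Intervals cover counting error only. Depth was 22529828 and 26890199 expected counts. P-values measure only the difference between these samples, which may be technical.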

Additional observations from a re-analysis of the deposited data

How the results depend on the processing

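With 2 libraries of 1 group, no condition was compared and SDs rest on n = 2. No paired analysis was possible because both libraries are of 1 group. Detected members numbered 48 or 49 under all TPM and FPKM limits tried. Members that differed between the libraries numbered 30 to 41 under other scalings, count limits and trends, but 1 (NOP58) with an edgeR exact test at an assumed coefficient of variation of 0.1. Members past 0.5 numbered 1 with the GC trend removed, 1 with GC and length trends removed together, and 0 at a limit of 1. For the other factors, 33 differed with the GC trend removed. Leaving out each library in turn gave shares of TPM from 0.916% to 1.02% and medians from 60.6 to 68.1 TPM. The members held 1.34% of the TPM of protein-coding genes, and 0.642% of all TPM without NPM1. Their median log2 ratio was 0.056 on TPM + 1, against -0.04 on scaled counts. The cause was not tested for any of these.

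Group levels moved more. On CPM, which is not scaled to length, they were 3.48 for chaperones, 0.83 for box C/D, 0.28 for box H/ACA, 0.36 for UTP-A (-0.38 on TPM), -0.047 for helicases, 0.14 for PeBoW and -0.42 for other pre-60S factors. As means of log2(TPM + 1) they were 3.20 for chaperones, 0.84 for box C/D, 1.22 for box H/ACA, 0.0095 for PeBoW, -0.42 for other pre-60S, -0.51 for pre-40S, -0.58 for helicases, -0.59 for UTP-A and -1.04 for other processome factors. Without the highest member of each group they were 3.03 for chaperones, 1.36 for box C/D, 1.40 for box H/ACA, 0.27 for PeBoW, -0.31 for helicases, -0.41 for pre-40S, -0.54 for other processome factors and -0.63 for UTP-A. That setting, the joint removal of trends and the share without NPM1 were added after seeing the data. On TPM the 4 highest groups stayed above the other 5 under each of these settings.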
